A study of Mus musculus with 30 samples.

Results

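The genes described here are 32 genes of the presynaptic vesicle and its release machinery, followed through neurons, astrocytes and myeloid cells sorted from the brains of mice with and without amyloid pathology. They were chosen by symbol, from a list of vesicle proteins, SNARE proteins, calcium sensors, active zone scaffolds, endocytic proteins and neurexins. The rule itself uses no measured value, but the choice was made with earlier results of these data known. All 32 were found among the 36528 gene identifiers counted, by way of the mouse symbol of each Entrez identifier.

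The 30 RNA libraries fell into 6 groups of 5. Neurons were sorted by NeuN+, astrocytes by Gfap+ and myeloid cells by Cd11b+ staining, NeuN being a neuronal nuclear protein, Gfap an astrocyte filament and Cd11b a surface integrin of microglia and other myeloid cells. For each of these 3 populations, PS2APP transgenic mice were compared with their non-Tg littermates, which lack the transgenes, and every animal was 11.5 months old. PS2APP mice carry human presenilin 2 and human amyloid precursor protein transgenes, placed in this line under the prion protein and Thy1 promoters, and the Thy1 cassette is active mainly in neurons. The labels do not tie a library to an animal, so the p-values below measure the spread between libraries, which may be technical in part, and the replicate numbers serve only as names.

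Neurotransmitter is released when a vesicle docks at the active zone, is primed, and fuses with the plasma membrane as SNARE proteins on the facing membranes zip together. Calcium entering the terminal acts on synaptotagmin to trigger that step, after which Nsf and its adaptors take the SNARE complex apart and dynamin, endophilin, amphiphysin and synaptojanin retrieve the membrane. Most of these proteins are made in neurons, but astrocytes and microglia also secrete and recycle vesicles, and several of the genes have known non-neuronal expression. In a bulk library of sorted cells, fewer cells of a type and less RNA per cell cannot be told apart, and reads from a neuronal fragment carried into a glial sort count the same as reads from the glial cell.

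Total counts ranged from 2015535 to 6749681 per library, and 3 counts, the limit that a count of 0 allows, corresponded to 0.44 to 1.49 CPM, the count scaled to library size. In non-Tg libraries the summed CPM of 16 neuron markers was 8129.7 ± 522 in neurons, 1146 ± 289 in astrocytes and 389.9 ± 47.4 in myeloid cells (SD, n = 5 each), and no marker of the list was at 0 in every library of any group. The 10 astrocyte markers summed to 15900.1 ± 3460 CPM in astrocyte libraries and 660.8 ± 58.9 in neuron libraries, and the 10 myeloid markers to 9801 ± 760.3 CPM in myeloid libraries and 66.1 ± 10.3 in neuron libraries. Each label thus carried its own markers, and each glial sort carried neuron markers too. Astrocyte libraries also held 1015 ± 193.8 CPM of 10 oligodendrocyte and 372 ± 72.7 of 6 oligodendrocyte precursor markers, against 196.3 ± 42.2 and 67.9 ± 10.3 in neurons. Myeloid libraries held 859.2 ± 204.8 CPM of the astrocyte and 880.1 ± 189.9 of the oligodendrocyte markers. The part of such cells in the levels below was not tested. PS2APP myeloid libraries were shallower than non-Tg ones (2015535 to 2908222 against 3578249 to 6143018 counts; exact permutation test, two-sided, p = 0.00794 and 0.0417 after adjustment over 21 composition tests). PS2APP library 4 of the myeloid cells, library 3 of the astrocytes and library 5 of the neurons had the most extreme score on the leading principal component of their population, so results that rest on them are also given without them.

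In the non-Tg libraries 28 of the 32 presynaptic genes were higher in neurons than in astrocytes and 28 were higher in neurons than in myeloid cells (edgeR quasi-likelihood test across all genes, adjusted p under 0.05). Across all 17496 genes tested, 29.1% were higher and 26.4% lower in neurons than in astrocytes, and 36.8% were higher and 33.2% lower in neurons than in myeloid cells. The median log2 difference of the presynaptic genes was 2.16 against astrocytes and 3.12 against myeloid cells, where the median over all genes was 0.08 in each contrast. Summed over the list, the genes made 10309 ± 1867 CPM in neuron, 2293 ± 458.6 CPM in astrocyte and 1293 ± 47.0 CPM in myeloid libraries (SD, n = 5 each).

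**Figure D1:**
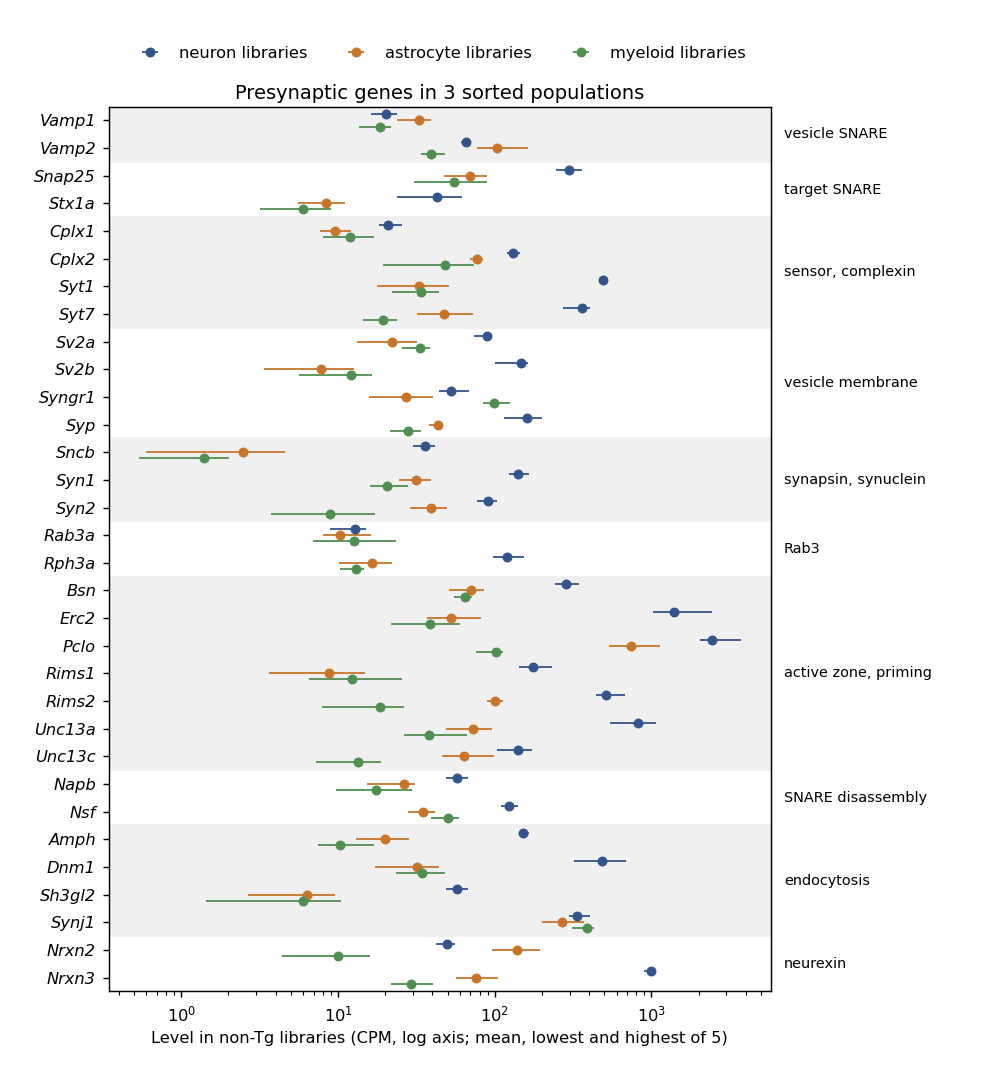
Level of each presynaptic gene in the 5 non-Tg libraries of each population, in CPM on a log axis, grouped by role; points are means and bars run from the lowest to the highest library. Most genes sit highest in neurons, while Vamp1, Vamp2 and Nrxn2 sit highest in astrocytes and Syngr1 and Synj1 in myeloid cells.

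The SNARE proteins did not share a pattern. Snap25, the target SNARE that lines the plasma membrane, stood at 298.8 ± 53.0 CPM in neurons, 70.0 ± 14.9 in astrocytes and 54.6 ± 21.8 in myeloid cells, with the same order for its partner Stx1a (syntaxin 1A) at 43.0 ± 15.2, 8.41 ± 2.36 and 5.97 ± 2.64 CPM. The vesicle SNARE Vamp2 (synaptobrevin 2) was instead highest in astrocytes, at 103.9 ± 34.6 CPM against 65.1 ± 3.13 in neurons and 39.0 ± 5.95 in myeloid cells. Vamp1, its paralog, was also higher in astrocytes than in neurons, with a log2 difference of neurons over astrocytes of -0.58 ± 0.20 (SE, edgeR adjusted p = 0.019), as was Vamp2 (-0.58 ± 0.19, adjusted p = 0.012). In all 3 members passed as lower in neurons than in astrocytes, 2 to 3 when a library was left out and 2 in PS2APP libraries. On CPM scaled within astrocyte libraries alone, unlike the means above, non-Tg library 1 held 142 CPM of Vamp2 and the other non-Tg libraries 67.4 to 85.7. Against myeloid cells the order differed: Vamp2 was lower in myeloid cells than in neurons (log2 difference of neurons over myeloid cells 0.85 ± 0.19, adjusted p = 0.00049) and Vamp1 did not pass there (0.24 ± 0.21, adjusted p = 0.31).

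Among the calcium sensors, Syt1, which triggers fast release, was at 490.3 ± 17.2 CPM in neurons and at 32.96 ± 12.7 and 33.7 ± 9.57 CPM in astrocytes and myeloid cells. Astrocytes and myeloid cells did not differ for Syt1 beyond their spread (log2 difference -0.02 ± 0.22, adjusted p = 0.93). Syt7, a slower sensor, was higher in astrocytes than in myeloid cells by 1.28 ± 0.21 on the log2 scale (adjusted p = 1.5e-05). The complexins Cplx1 and Cplx2, which bind the assembled SNARE complex, showed smaller neuronal excesses, 0.86 to 1.55 on the log2 scale.

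The vesicle membrane proteins also split. Sv2b, a vesicle glycoprotein, was at 147.3 ± 26.7 CPM in neurons and at 7.77 ± 3.95 and 12.1 ± 4.47 CPM in astrocytes and myeloid cells. Syp (synaptophysin), an abundant vesicle protein, followed Sv2b in direction, at 160.7 ± 30.6, 43.3 ± 3.80 and 27.8 ± 4.71 CPM. Syngr1 (synaptogyrin 1) went the other way and was highest in myeloid cells, at 99.1 ± 18.8 CPM against 52.3 ± 9.56 in neurons and 27.2 ± 9.86 in astrocytes. It was the only member that passed as lower in neurons than in myeloid cells (log2 difference -0.81 ± 0.22, adjusted p = 0.0022). Rab3a, the small GTPase of synaptic vesicles, had nearly the same level everywhere, at 12.8 ± 2.44, 10.3 ± 3.43 and 12.7 ± 6.36 CPM in neurons, astrocytes and myeloid cells, and passed in none of the contrasts between populations, whereas its effector Rph3a was at 119.1 ± 21.0 CPM in neurons and 16.6 ± 4.33 and 13.04 ± 2.03 CPM in glia.

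The active zone genes were all higher in neurons than in either glial population, with median log2 differences of 2.47 against astrocytes and 4.55 against myeloid cells. Erc2, a scaffold that binds Rim proteins and the member with the widest gap in both contrasts, was at 1398 ± 592 CPM in neurons, where non-Tg library 1 was far above the others, 52.6 ± 17.2 in astrocytes and 38.4 ± 15.7 in myeloid cells, log2 differences of 4.83 ± 0.32 and 5.30 ± 0.33 (edgeR adjusted p = 3.4e-11 and 5e-12). Unc13a (Munc13-1), the main priming factor, was at 825.1 ± 215 CPM in neurons, 73.0 ± 18.1 in astrocytes and 38.2 ± 16.1 in myeloid cells. Pclo (Piccolo), a giant scaffold, was less uneven in astrocytes: 2432 ± 712 CPM in neurons, 739.4 ± 233 in astrocytes and 101.5 ± 15.4 in myeloid cells. Rims2 and Unc13c likewise stood higher in astrocytes than in myeloid cells, with log2 differences of 2.44 ± 0.23 and 2.24 ± 0.24, while Rims1 and Bsn did not pass (adjusted p = 0.28 and 0.57).

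Of the genes that retrieve membrane, Dnm1 (dynamin 1), Amph (amphiphysin) and Sh3gl2 (endophilin A1) were 3.01 to 4.02 higher on the log2 scale in neurons than in either glial population. Synj1 (synaptojanin 1), the phosphatase that helps uncoat retrieved vesicles, was at 336.1 ± 39.8 CPM in neurons, 269.6 ± 64.2 in astrocytes and 387.6 ± 44.5 in myeloid cells. Its neuron and myeloid levels did not differ beyond their spread (log2 difference -0.10 ± 0.16, edgeR adjusted p = 0.59). It was higher in neurons than in astrocytes (0.41 ± 0.16, adjusted p = 0.034) and lower in astrocytes than in myeloid cells (-0.52 ± 0.16, adjusted p = 0.0089). The SNARE disassembly genes Nsf and Napb were higher in neurons than in astrocytes by 1.93 ± 0.17 and 1.22 ± 0.25. The neurexins, presynaptic adhesion proteins, parted ways: Nrxn3 was at 999.8 ± 66.8 CPM in neurons and 76.2 ± 19.1 in astrocytes, while Nrxn2 was at 49.8 ± 6.35 CPM in neurons and 138.2 ± 38.2 in astrocytes, a log2 difference of -1.37 ± 0.26 for neurons over astrocytes (adjusted p = 0.00012).

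Between astrocytes and myeloid cells 15 members were higher in astrocytes and 4 were lower, beside 32.8% and 28.3% of all genes, and the 4 lower were Syngr1, Synj1, Nsf and Sv2a. Per kilobase, on the authors' size-factor-adjusted RPKM scale, Erc2 was the highest member in non-Tg neurons at 54.1 ± 22.3, ahead of Snap25 at 43.0 ± 8.14 and Pclo at 35.4 ± 10.0, and these 3 overlapped across libraries within their SD. Vamp2 led in astrocytes at 14.99 ± 5.00 RPKM and Synj1 in myeloid cells at 12.9984 ± 1.55 RPKM.

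Promoter sequence was available for 27 of the 32 genes, as 38 windows of 250 bases before to 50 bases after a RefSeq start (GRCm38.p6). Rims2, Snap25, Nrxn2, Vamp2 and Syt7 had no entry in the table used. The windows shown are those of the genes with letters of the REST element, a silencer of neuronal genes outside neurons (Syn1 and Unc13a), and of the members that changed in myeloid cells (Stx1a) or had the smallest p in neurons (Sv2b). Capitals mark REST half-sites in the windows of Syn1 and Unc13a and the GC box, GGGCGG or its complement, in those of Stx1a and Sv2b. Of the 4 windows of Sv2b, the one shown is the only one with a GC box.
Syn1 (chrX:20920869-20921168, minus strand): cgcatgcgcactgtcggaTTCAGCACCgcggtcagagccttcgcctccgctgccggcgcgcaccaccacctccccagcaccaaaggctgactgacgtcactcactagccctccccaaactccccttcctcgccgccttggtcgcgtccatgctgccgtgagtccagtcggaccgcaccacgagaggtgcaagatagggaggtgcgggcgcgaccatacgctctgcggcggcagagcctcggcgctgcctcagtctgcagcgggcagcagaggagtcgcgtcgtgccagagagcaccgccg
Unc13a (chr8:71671708-71672007, minus strand): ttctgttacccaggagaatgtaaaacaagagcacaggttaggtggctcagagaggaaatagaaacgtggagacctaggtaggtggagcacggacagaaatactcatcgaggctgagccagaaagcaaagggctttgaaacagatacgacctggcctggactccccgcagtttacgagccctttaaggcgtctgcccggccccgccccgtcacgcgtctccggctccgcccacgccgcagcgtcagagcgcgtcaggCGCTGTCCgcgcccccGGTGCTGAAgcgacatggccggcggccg
Stx1a (chr5:135023232-135023531, plus strand): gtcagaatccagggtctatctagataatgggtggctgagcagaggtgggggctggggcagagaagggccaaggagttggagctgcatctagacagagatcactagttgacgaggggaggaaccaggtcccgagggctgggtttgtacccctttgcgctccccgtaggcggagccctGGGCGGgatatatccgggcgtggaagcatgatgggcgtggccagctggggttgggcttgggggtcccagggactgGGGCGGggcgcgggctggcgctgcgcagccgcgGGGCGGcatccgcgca
Sv2b (chr7:75309213-75309512, minus strand): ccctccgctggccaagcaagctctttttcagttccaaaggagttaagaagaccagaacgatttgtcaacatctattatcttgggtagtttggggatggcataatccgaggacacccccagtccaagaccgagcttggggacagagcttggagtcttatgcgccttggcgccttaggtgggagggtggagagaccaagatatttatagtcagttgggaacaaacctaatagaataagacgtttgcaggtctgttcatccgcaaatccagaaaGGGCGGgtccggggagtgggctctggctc

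The left half-site of the REST element, TTCAGCACC on either strand, occurred in 2 of the 38 windows (5.26%), those of Syn1 and Unc13a, and in 0.37% of 32851 promoter windows of all genes. The right half-site, GGACAGCG on either strand, occurred in 1 of the 38 (2.63%), that of Unc13a, beside 1.26% of all windows, and there the half-sites lay 8 bases apart on the strand opposite to the one printed. The GC box was in 21 of the 38 windows (55.3%) and in 35.7% of all windows, and the TATA box letters TATAAA in 2 (5.26%) and 13.6%. The cyclic AMP response element TGACGTCA was in the windows of Syn1 and Sh3gl2 (5.26%, beside 1.79% of all). The median GC content of the windows was 61.2%, against 52.7% over all genes. A match describes letters only, and in these data Syn1 and Unc13a were both higher in neurons than in either glial population, as were most members without the letters.

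The glial levels were next set beside those of neuron markers in the same sorts. As a percent of the non-Tg neuron level, the members had a median of 23.97% in astrocyte libraries (3.76% to 278%) and 12.4% in myeloid libraries (2.75% to 189%). The 16 neuron markers, none of which is a member, had medians of 15.2% (5.33% to 82.5%) and 10.6% (2.49% to 33.3%). At the low end in astrocytes, Erc2 at 3.76%, Rims1 at 4.96% and Sv2b at 5.27% lay below the lowest marker, and Dnm1 at 6.59% and Syt1 at 6.72% within the marker range. At the high end, Nrxn2 was at 278% in astrocytes, Vamp1 at 161% and Vamp2 at 160%, and in myeloid cells Syngr1 was at 189%, Synj1 at 115%, Rab3a at 98.8% and Vamp1 at 91.5%, each above every neuron marker of the same sort.

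**Figure D2:**
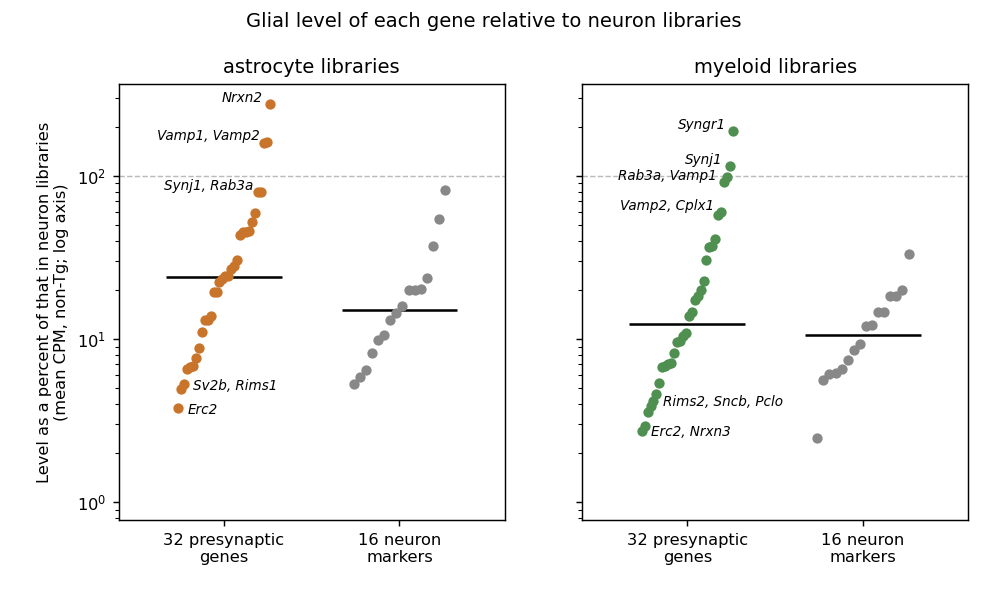
Mean CPM of each gene in non-Tg astrocyte (left) and myeloid (right) libraries as a percent of its mean in non-Tg neuron libraries, on a log axis; each point is a gene, horizontal lines are medians and the dashed line marks 100%. Nrxn2, Vamp1 and Vamp2 in astrocytes and Syngr1 and Synj1 in myeloid cells lie above the dashed line, and Erc2 lies at 3.76% and 2.75%.

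With counts expressed relative to the neuron marker total of each library, a gene whose RNA came in the same proportion to those markers as in neurons has a log2 difference of 0. On that scale 18 members were higher and 8 lower in astrocytes than in neurons, and 23 higher and 2 lower in myeloid cells (edgeR adjusted p under 0.05). Most genes of any kind were higher on this scale: 85.7% higher and 3.36% lower in astrocytes, and 85.5% higher and 1.77% lower in myeloid cells. The members' medians were 0.79 and 1.399, below the all-gene medians of 2.88 and 4.41. A single noncoding RNA, Snhg11, made up 65.1% ± 4.90 of the marker total in neurons and 23.5% ± 6.71 in astrocytes (SD, n = 5 each), and without it the astrocyte counts were 8 higher and 13 lower, beside 73.9% and 8.36% of all genes. The myeloid counts were then 15 higher and 7 lower, beside 79.6% and 6.02%. Without both Snhg11 and Map2 the astrocyte counts were 17 higher and 8 lower, beside 14758 and 707 of all 17496 genes. The myeloid counts without both were 14 and 10, beside 13659 and 1283 genes.

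Some members kept their side whichever of 5 marker sets was used as denominator, including sets without Snhg11 or Map2 chosen after seeing the data. In astrocytes Vamp2 lay 2.36 to 3.54 above 0 on the log2 scale, Vamp1 2.41 to 3.62, Nrxn2 3.19 to 4.40, Synj1 1.38 to 2.58, Rab3a 1.33 to 2.52 and Syngr1 0.71 to 1.90, each called every time, and Cplx2 and Unc13c did too. Erc2, Rims1, Sv2b, Dnm1, Syt1, Sncb and Nrxn3 were called lower every time, Erc2 by a log2 difference of -3.003 to -1.88. Depending on the marker set, 12931 to 15004 of all 17496 genes were called higher in astrocytes and 578 to 1462 lower. The all-gene median was 1.73 to 2.91, and Synj1, Rab3a, Syngr1, Cplx2 (0.97 to 2.15) and Unc13c (0.56 to 1.71) lay lower than that at both ends of their ranges. How many of all genes kept their side under all 5 was not counted. In myeloid cells Syngr1 lay 4.02 to 5.69 above 0, Synj1 3.33 to 4.99, Vamp1 2.99 to 4.64 and Vamp2 2.35 to 4.03. There 13450 to 15335 of all genes were called higher and 146 to 1439 lower. The all-gene median was 3.10 to 4.79, and Vamp1 and Vamp2 lay lower than that at both ends. No member was called lower in myeloid cells under all 5, although Erc2 and Nrxn3 were under 4. Rab3a, Snap25, Cplx1, Bsn, Nsf, Napb and Sv2a were among those called higher in myeloid cells under all 5. Stx1a was called in astrocytes under none (-0.62 to 0.52).

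Gene length tracked the glial share, given here as a description across members that share libraries. The percent of the neuron level was lower for longer gene bodies, with a Spearman rho of -0.47 in astrocytes and -0.60 in myeloid cells (n = 32 genes), whereas with exonic length rho was -0.07 and -0.34. The 13 members with gene bodies over 100 kb had medians of 13.2% in astrocytes and 7.00% in myeloid cells, and the 19 shorter ones 24.5% and 22.7%. Erc2, with a body of 856.1 kb, was lowest in both sorts, and Vamp2, with 3.9 kb, was among the highest. Other members went against the trend. Nrxn2, with 125.4 kb, was highest in astrocytes at 278%, and Sncb, with 7.74 kb, was at 6.87% in astrocytes and 3.89% in myeloid cells. The relation over all genes was not examined.

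The myeloid comparison set the presynaptic genes of PS2APP mice against those of non-Tg littermates. Vamp2 and Stx1a, SNAREs of the vesicle and the plasma membrane, were higher in PS2APP myeloid libraries and no member was lower, among the 31 members that passed the filter on low counts (Sncb, or beta-synuclein, did not pass). Across all 12274 genes tested, 1.86% were higher and 1.5% lower (edgeR quasi-likelihood test, adjusted p under 0.05). Of the 31, 24 had a positive difference, with a median of 0.34 on the log2 scale against a median of 0.00 over all genes, and 15 had an unadjusted p under 0.05, 14 of these higher, beside 19.3% of all genes. That count was 9 without PS2APP library 2, beside 19.6%. DESeq2 called 6 higher and none lower, beside 4.17% and 3.06% of all genes.

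Within the myeloid libraries Vamp2 stood at 32.5, 34.5, 46.2, 38.7 and 32.2 CPM in the 5 non-Tg libraries and at 59.4, 90.4, 54.0, 111 and 52.9 CPM in the 5 PS2APP libraries. Every PS2APP value lay above every non-Tg value, and libraries 2 and 4 were the highest. How many of all genes separate by genotype in this way was not counted, for Vamp2 or for the members below. The means were 36.8 ± 5.86 and 73.6 ± 26.1 CPM (SD, n = 5 each), a log2 difference of 0.99 ± 0.23 (SE, edgeR adjusted p = 0.023). Stx1a stood at 8.63, 4.599, 3.06, 7.97 and 3.92 CPM in non-Tg and at 13.9, 14.3, 21.7, 48.4 and 11.2 CPM in PS2APP libraries. These groups did not overlap either, and library 4 was more than 2-fold above the next. The counts behind Stx1a were small, 11 to 56 per non-Tg and 27 to 76 per PS2APP library, and its log2 difference was 1.93 ± 0.45 (edgeR adjusted p = 0.023).

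Without PS2APP library 4, neither gene passed: Vamp2 had a log2 difference of 0.80 (edgeR adjusted p = 0.068) and Stx1a of 1.43 (adjusted p = 0.094). The Vamp2 call was also lost without non-Tg library 4 (1.01) or 5 (0.94) and the Stx1a call without non-Tg library 3 (1.78) or 5 (1.82), so each call was kept in 7 of 10 fits that left out a library.

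Synj1, next by p, stood at 388.7, 396.5, 377.0, 371.0 and 296.8 CPM in non-Tg and at 450.2, 422.7, 538.3, 704.7 and 535.6 CPM in PS2APP myeloid libraries. The groups did not overlap, yet the log2 difference of 0.53 ± 0.15 missed the threshold (edgeR adjusted p = 0.057). Unc13a was at 36.2 ± 15.8 and 63.7 ± 9.26 CPM (log2 difference 0.82 ± 0.25, adjusted p = 0.064). Chosen after their values were seen, Pclo had higher PS2APP values with no overlap (71.4 to 108 and 110.2 to 174 CPM) and Vamp1 lower ones (13.01 to 20.5 and 6.94 to 12.4 CPM), with log2 differences of 0.51 ± 0.17 and -0.74 ± 0.34 that did not pass (adjusted p = 0.10 and 0.23). By role, all 7 active zone and priming genes had positive differences, with a median of 0.67, none of them past the threshold, while 3 of the 4 vesicle membrane genes (Sv2a, Sv2b and Syngr1) had negative ones, with a median of -0.23. Over all genes 49.8% had positive differences, as had 18 of 20 postsynaptic genes and 13 of 14 neuron markers tested.

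**Figure D3:**
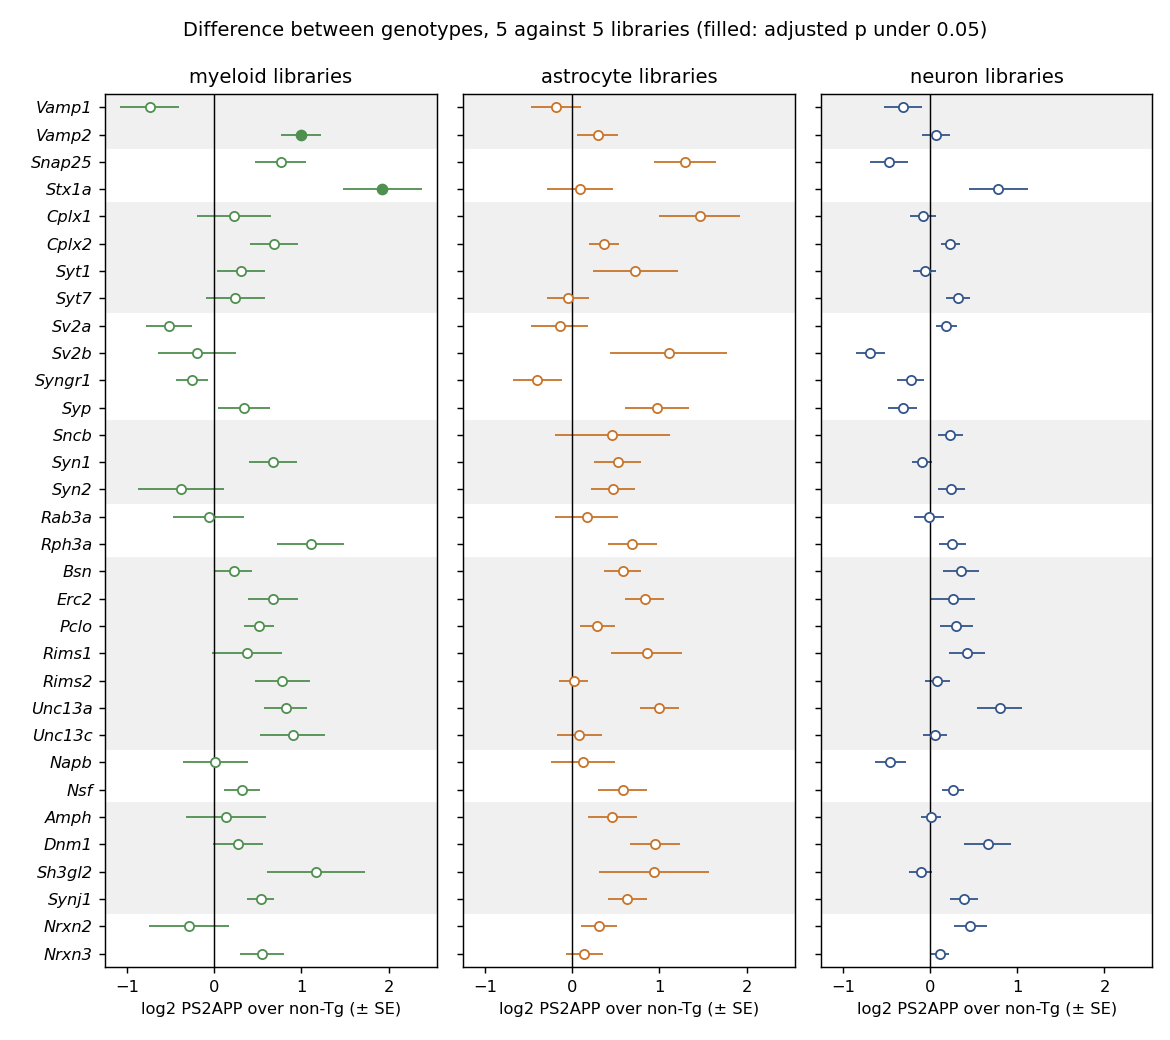
Log2 difference between PS2APP and non-Tg libraries for each presynaptic gene in myeloid, astrocyte and neuron libraries, with SE bars from edgeR and filled points for an adjusted p under 0.05. Only Vamp2 (0.99) and Stx1a (1.93) in myeloid libraries are filled, and most glial points lie to the right of 0.

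Some marker totals moved with genotype in the same libraries, and others did not. The neuron marker total was 316.8 to 435.2 CPM in non-Tg and 519.3 to 650.4 CPM in PS2APP myeloid libraries, a log2 difference of 0.55 (two-sided exact permutation p = 0.00794, adjusted p = 0.0417), and 13 of its 14 tested genes had positive differences, with Snhg11 among those past the threshold (log2 difference 0.60 ± 0.16, edgeR adjusted p = 0.043). The summed presynaptic genes were 1293 ± 47.0 and 1678 ± 151.3 CPM, and their ratio to the marker total was 3.35 ± 0.41 in non-Tg and 2.95 ± 0.21 in PS2APP libraries (SD, n = 5 each). The oligodendrocyte marker total was also higher, 722.1 to 1114 against 1182 to 1801 CPM (exact permutation adjusted p = 0.0417), and the mitochondrial share of counts was 8.75% ± 2.89 and 13.5% ± 2.97 (adjusted p = 0.117). A list of 11 excitatory and inhibitory neuron markers summed to 45.6 ± 6.39 and 51.2 ± 20.9 CPM (exact permutation adjusted p = 0.722). Astrocyte markers summed to 859.2 ± 204.8 and 821.1 ± 143.8 CPM (adjusted p = 0.778). The myeloid markers themselves were lower, 9801 ± 760.3 and 7643 ± 1130 CPM (exact permutation p = 0.0159, adjusted p = 0.0667). With the mitochondrial share as a covariate no member passed, beside 0.212% of all genes, and the part of the oligodendrocyte RNA in these results was not tested.

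With counts scaled to the neuron marker total, 1 member was higher (Stx1a, log2 difference 1.24 ± 0.47, edgeR adjusted p = 0.044) and 3 were lower (Sv2a, Syngr1 and Vamp1), beside 0.416% and 30.4% of all genes, and the Vamp2 difference was 0.34 ± 0.25 (adjusted p = 0.29). That scaling moved the median of all genes by -0.63, and the median of the members on it was -0.32. With the marker total as a covariate no member passed, beside 0.0407% of all genes, Vamp2 being at 0.07 ± 0.49 and Stx1a at 2.80 ± 1.12, but since the marker totals of the genotypes do not overlap, genotype and marker total cannot be told apart in that fit.

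In astrocytes no presynaptic gene passed the threshold, beside 0.185% of 14043 genes higher and 0% lower. All 32 members were tested, 28 had a positive difference, and the median was 0.46 against 0.01 over all genes. At an unadjusted p under 0.05 there were 10, all higher, beside 17.2% of all genes, and 5 without PS2APP library 3, beside 12.8%. DESeq2 called 3 members higher (Unc13a, Erc2 and Snap25), beside 1.64% of all genes. With no filter on low counts edgeR called 6, the others being Cplx1, Dnm1 and Syp, beside 1.29%.

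The smallest p belonged to Unc13a, at 64.3, 82.2, 55.3, 72.6 and 42.1 CPM in non-Tg and 113.9, 108, 198.7, 97.3 and 116.1 CPM in PS2APP astrocyte libraries. The groups did not overlap, and library 3 stood above the other PS2APP libraries. The log2 difference was 0.999 ± 0.22 (edgeR adjusted p = 0.073) and 0.78 ± 0.19 without library 3 (adjusted p = 0.13). Erc2 was at 70.6, 44.2, 37.7, 43.7 and 32.1 CPM in non-Tg and 78.2, 71.2, 81.7, 66.6 and 109.6 CPM in PS2APP libraries. Only the highest non-Tg library overlapped the PS2APP range, and the log2 difference was 0.83 ± 0.22 (edgeR adjusted p = 0.12). It passed once, without non-Tg library 1 (1.05, adjusted p = 0.024). Like those of Unc13a, the astrocyte groups of Bsn did not overlap (44.0 to 73.3 CPM in non-Tg and 73.7 to 138 in PS2APP libraries), and Bsn did not pass. The number of all genes that separate by genotype in astrocytes was not counted.

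Snap25 was at 77.0, 41.1, 59.8, 65.2 and 60.8 CPM in non-Tg and 86.1, 66.9, 360.6, 82.5 and 149.5 CPM in PS2APP astrocyte libraries. Library 3 held more than 2-fold the next value, and the log2 difference of 1.29 ± 0.36 (edgeR adjusted p = 0.13) was 0.66 ± 0.23 without it (adjusted p = 0.27). Sv2b turned direction with that library, from 1.11 ± 0.67 to -0.53 ± 0.48, and Napb from 0.13 ± 0.37 to -0.40 ± 0.30. Without it 21 of the 32 members had a positive difference and their median was 0.18.

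**Figure D4:**
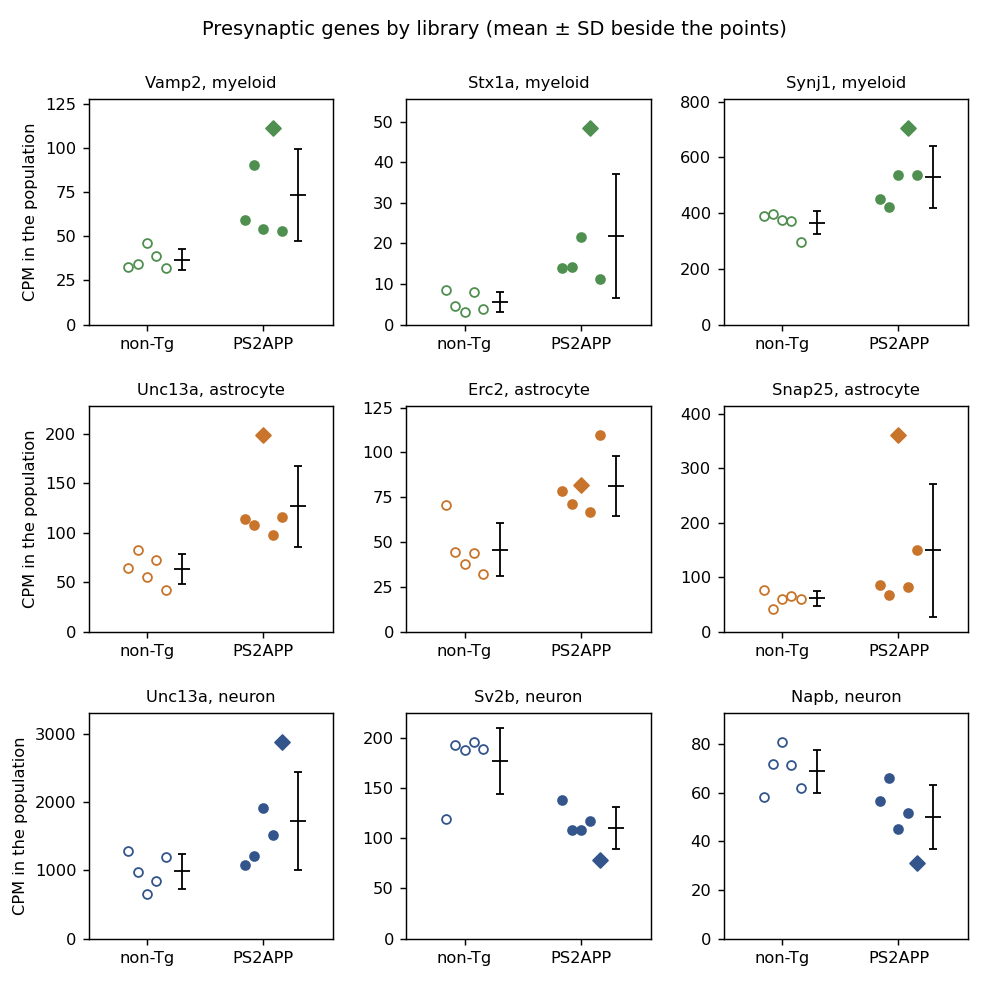
CPM within the population for the presynaptic genes with the smallest p in myeloid (top), astrocyte (middle) and neuron (bottom) libraries; open points are non-Tg and filled points PS2APP libraries, bars are mean ± SD, and diamonds mark the PS2APP library with the most extreme leading principal component score. The diamond is the highest PS2APP point for Vamp2 (111 CPM), Stx1a (48.4 CPM), Synj1 (704.7 CPM), Snap25 (360.6 CPM) and Unc13a, and the lowest for Sv2b and Napb in neurons.

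The neuron marker total in astrocyte libraries was 1146 ± 289 and 1571 ± 284.3 CPM in non-Tg and PS2APP mice (exact permutation p = 0.0556, adjusted p = 0.117), and 2031 CPM in library 3. That library also held 245.1 CPM of 11 excitatory and inhibitory neuron markers, where the other PS2APP libraries held 57.1 to 68.4, and its presynaptic total of 4705 CPM stood against 2456 to 2875 in them. The ratio of the presynaptic total to the neuron marker total was 2.02 ± 0.18 and 1.95 ± 0.30. Scaled to the marker total, 15 of 32 members had a positive difference with a median of -0.01, on a scale that moved the median of all genes by -0.49, and no member passed, beside 0.135% of all genes higher and 3.38% lower. In the same libraries the total of 10 oligodendrocyte markers was 1015 ± 193.8 CPM for non-Tg and 1573 ± 405.3 CPM for PS2APP mice (exact permutation adjusted p = 0.0952), and that of 10 myeloid markers 62.4 ± 13.8 and 117.6 ± 27.7 CPM (adjusted p = 0.0833). Their part in the astrocyte results was not tested. The mitochondrial share in astrocytes was 3.58% ± 0.87 in non-Tg and 6.91% ± 1.14 in PS2APP libraries (exact permutation adjusted p = 0.0417). With it as a covariate no member passed, beside 2 of 14043 genes, and 6 of 32 members had a positive difference. The shares did not overlap, being at most 4.74% in non-Tg and at least 5.60% in PS2APP libraries. Genotype and mitochondrial share therefore cannot be told apart in that fit.

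**Figure D5:**
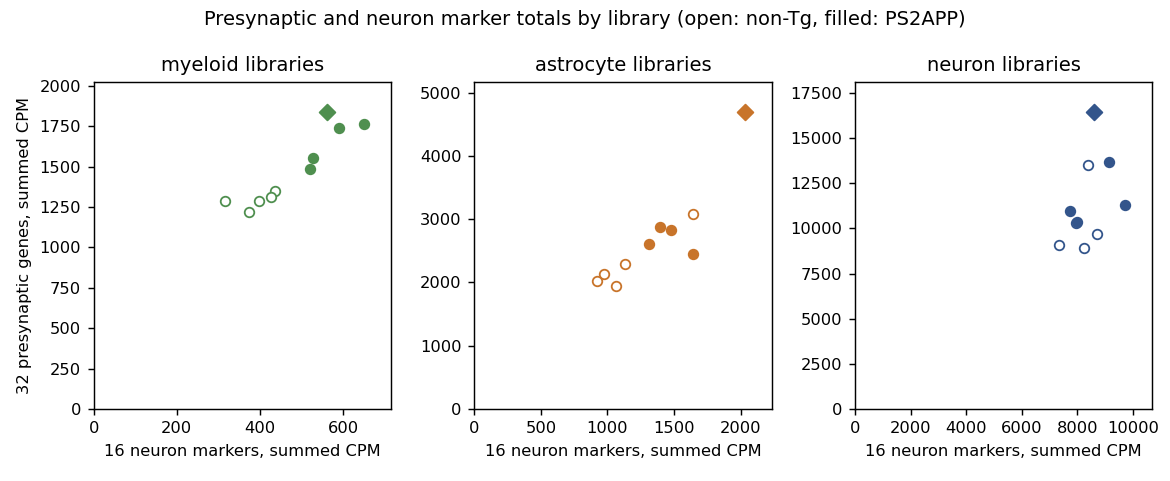
Summed CPM of the 32 presynaptic genes against that of the 16 neuron markers in each library, with open points for non-Tg, filled points for PS2APP and diamonds for the PS2APP library with the most extreme leading principal component score. In myeloid cells the PS2APP libraries lie above the non-Tg ones on both axes, and in astrocytes PS2APP library 3 lies at 2031 and 4705 CPM.

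In neurons, where these genes are most abundant, none passed, beside 0.00623% of 16064 genes in either direction. Positive differences were found for 21 of 32 members, with a median of 0.15 against -0.02 over all genes, and 9 had an unadjusted p under 0.05, 6 of these higher, beside 22.9% of all genes. That count moved with single libraries. It was 3 without PS2APP library 5 (all genes 13.5%), 4 without PS2APP library 3 (14.2%), and 16, 5, 2 and 4 without non-Tg library 1, 2, 3 or 4 (31.1%, 16.1%, 12.7% and 13.7%). DESeq2 called 1 member, Sv2b, which was lower, beside 0.448% of all genes.

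Sv2b was at 119.2, 193.2, 188.2, 195.7 and 189.1 CPM in non-Tg and 137.9, 108.6, 108.7, 117.3 and 78.8 CPM in PS2APP neuron libraries. Apart from non-Tg library 1, which lay within the PS2APP range, the genotypes were separate. The log2 difference was -0.68 ± 0.17 (edgeR adjusted p = 0.19), and it kept its sign in each fit that left out a library (-0.79 to -0.58). Napb, an adaptor for Nsf, was at 58.0, 71.8, 80.7, 71.3 and 61.8 CPM in non-Tg and 56.8, 66.2, 45.0, 51.5 and 31.1 CPM in PS2APP libraries. These ranges overlapped, with a log2 difference of -0.46 ± 0.18 (edgeR adjusted p = 0.19). Syt7 was the only member without overlap in neurons (327 to 484 CPM in non-Tg and 494 to 659 in PS2APP libraries), and it did not pass. How many of all genes separate by genotype in neurons was not counted.

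Unc13a was at 1283, 978.6, 655.1, 841.4 and 1196 CPM in non-Tg and 1085, 1208, 1910.2, 1526 and 2881 CPM in PS2APP neuron libraries. The ranges overlapped and library 5 was the highest. The log2 difference was 0.80 ± 0.26 (edgeR adjusted p = 0.19) and 0.53 ± 0.20 without library 5 (adjusted p = 0.33). All 7 active zone and priming genes had positive differences in neurons too, with a median of 0.30 and none past the threshold, and Snap25 had a negative one (-0.47 ± 0.21, adjusted p = 0.21). In neurons 48.1% of all genes and 14 of 20 postsynaptic genes had positive differences. The neuron marker total was 8129.7 ± 522 and 8643 ± 821 CPM (exact permutation p = 0.278).

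Set side by side, Unc13a had log2 differences of 0.82 in myeloid, 0.999 in astrocyte and 0.80 in neuron libraries, and Stx1a 1.93, 0.09 and 0.78. Vamp2 had 0.99, 0.29 and 0.07, Snap25 0.76, 1.29 and -0.47, and Sv2b -0.20, 1.11 and -0.68. The test of the genotype difference between populations called none of the 32 members for any pair, while over 18101 genes it called 0.757% for myeloid against astrocyte, 0.105% for myeloid against neuron and 0.0331% for astrocyte against neuron libraries. At an unadjusted p under 0.05 there were 4, 6 and 4 members, beside 13%, 9.65% and 4.97% of all genes. The smallest adjusted p were those of Stx1a for myeloid minus astrocyte (1.75, adjusted p = 0.13) and Vamp2 for myeloid minus neuron (0.82, adjusted p = 0.38), with Snap25 for astrocyte minus neuron (1.73, adjusted p = 0.43).

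Other synaptic genes were given the same test, in which 1.86% of all genes were higher in PS2APP myeloid libraries. Of 62 further presynaptic genes 44 were tested in myeloid libraries and 1 was higher, Cacna1b, the pore subunit of N-type calcium channels (log2 difference 1.67 ± 0.41, adjusted p = 0.030). Syt3 (1.67 ± 0.48, adjusted p = 0.054) and Pacsin1 (0.94 ± 0.29, adjusted p = 0.071), a synaptotagmin and an endocytic adaptor, came next. Of 20 postsynaptic genes 3 were higher in myeloid libraries: the calcium and calmodulin dependent kinases Camk2a (0.97 ± 0.19, adjusted p = 0.0070) and Camk2b (0.94 ± 0.22, adjusted p = 0.023), and the scaffold Shank1 (0.88 ± 0.22, adjusted p = 0.028). Without PS2APP library 4 the further presynaptic genes gave no call and the postsynaptic genes 1, beside 0.798% of all genes higher.

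In astrocytes none of 51 further presynaptic and none of 20 postsynaptic genes passed in edgeR, with 15 and 9 at an unadjusted p under 0.05, all higher, beside the 17.2% of all genes. Leading these were Ppfia4 (1.30 ± 0.36, adjusted p = 0.13), Dnm2 (0.65 ± 0.19, adjusted p = 0.15) and Cacna1a (0.87 ± 0.26, adjusted p = 0.15), and Shank1, Camk2a and Shank2 with adjusted p = 0.078 each. In neurons none of 60 and none of 20 passed, with 17 and 11 at an unadjusted p under 0.05, beside the 22.9% of all genes. The vesicular glutamate transporter Slc17a6 (-0.92 ± 0.23) and Ppfia4 (0.76 ± 0.25) were among those of smallest p in the first list, and the glutamate receptor subunits Gria2 (-0.42 ± 0.12) and Gria3 (-0.51 ± 0.15) with the scaffold Dlg4 (0.81 ± 0.25) led the other, each at an adjusted p of 0.19. The median differences of the members, 0.34 in myeloid, 0.46 in astrocyte and 0.15 in neuron libraries, stood beside 0.31, 0.39 and 0.02 for the further presynaptic genes and 0.64, 0.46 and 0.27 for the postsynaptic genes.

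Some counts carry a limit of their own. Whether reads were counted by strand is not given in the sources used here, and the exons of Syp share 16.8% of their bases with the antisense gene Gm14703, those of Syt7 5.13% with Gm26859 and those of Unc13a 3.92% with Colgalt1 on the opposite strand. Paralogous members shared exact runs of at most 32 bases in their transcripts (Cplx1 with Cplx2), with 18 for Vamp1 with Vamp2 and 29 for Unc13a with Unc13c. The called gene Vamp2 lies at chr11:69088528-69092381 and Stx1a at chr5:135023482-135051100 in GRCm38.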

How the data were processed

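RNA from 30 sorted libraries was analysed from the deposited files, 1 for each library. Per the file headers, the authors' count is the number of uniquely aligned reads per gene model and their second column is RPKM, adjusted by a size factor. The aligner GSNAP and the build GRCm38 are named in the submitters' processing notes; the sources used here give no version or annotation. In the deposited RPKM, length tracked exonic rather than gene body length over 10113 genes.

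Of 36528 identifiers, 31049 had a symbol in the RefSeq table of GRCm38.p6, with 96.75% of counts. The deposited counts were tested across all genes in edgeR 4.0.16 (R 4.3.3): filterByExpr, TMM, quasi-likelihood test, Benjamini-Hochberg adjustment, threshold 0.05. Each genotype comparison used its own 10 libraries, the levels in populations the 15 non-Tg libraries, and differences of effect all 30. CPM within a population use its own TMM factors and CPM across populations those of all libraries. Ratios to neuron markers used the summed marker counts as library size. Marker totals and depth were set against genotype by exact permutation tests, two-sided (scipy 1.17.1), whose smallest p with 5 against 5 is 0.00794. DESeq2 1.42.0, other size factors, no filter, covariates, marker scaling, robust fits and leaving out each library were alternatives, and those without Snhg11 or Map2 were chosen after seeing the data. The fit was tested on simulated data.

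Members and lists were chosen with earlier results of these data known. Genes given library by library are members past the threshold and the 3 of smallest p in each genotype comparison. Replicates always differed by more than counting noise (chi-square over its degrees of freedom at least 4.06). Of the other synaptic genes and neuron markers, some single-gene results are not reported here.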

Additional observations from a re-analysis of the deposited data

Results flagged for a closer look

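For the genes given library by library the summed presynaptic genes and the summed neuron markers, 60 groups of 5 libraries were checked for a library far from the other 4, by a gap above 0.71 of the range of the group, and 13 were marked. Chance marks about 1 in 20 groups, and the groups share libraries. Of these, 6 were in PS2APP astrocyte library 3: Snap25 at 361 CPM (others 66.9 to 150), Stx1a at 13.7 (5.32 to 7.14), Sv2b at 54.4 (2.34 to 7.51), Unc13a at 199 (97.3 to 116), Napb at 55.9 (10.95 to 23.4) and the summed presynaptic genes at 4705 (2456 to 2875). What sets it apart was not tested, and values without it stand beside the astrocyte results that move.

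In myeloid cells PS2APP library 4 had Stx1a at 48.4 CPM (others 11.2 to 21.7), non-Tg library 3 had Unc13a at 63.8 (24.6 to 33.3) and non-Tg library 5 had Synj1 at 297 (371 to 396). In astrocytes non-Tg library 1 had Vamp2 at 142 CPM (67.4 to 85.7) and non-Tg library 2 had Napb at 13.2 (23.5 to 27.0). In neurons non-Tg library 1 had Sv2b at 119 CPM (188 to 196) and Erc2 at 2901 (1228 to 1648).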

How the results depend on the processing

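In myeloid libraries the count of higher members, 2, was 6 with DESeq2 and 4 without the filter, beside 512 of 12274 and 523 of 27696 genes. It was 0 with the neuron marker total or the mitochondrial share as covariate (5 and 24 of 12274 genes). With scaling to the neuron marker total it was 1 (51 genes). Without Snhg11 it was 0 as covariate and 0 by scaling (16 and 41 genes), and without Snhg11 and Map2 0 and 1 (15 and 45 genes). When a library was left out it was 0 to 3, beside 70 to 385 genes. Lower members, 0, became 3 under each of the 3 scalings, beside 3736, 3646 and 3712 of 12274 genes. The scalings move the median of all genes by -0.63, -0.68 and -0.66, and Synj1, at -0.10, -0.15 and -0.14 under them, turns with that shift. In astrocytes the count, 0, was 6 without the filter, 3 with DESeq2 and 0 to 1 with a library left out, and Snap25 turned to -0.44 with the mitochondrial covariate. Genotype and mitochondrial share cannot be told apart in that astrocyte fit. DESeq2 called 1 lower member in neurons. In PS2APP in place of non-Tg libraries, 2 rather than 4 members were lower in astrocytes than in myeloid cells, beside 3554 of 15385 and 4957 of 17496 genes. Relative to neuron markers, leaving out Snhg11 gave 8 higher and 13 lower in astrocytes, beside 12931 and 1462 of 17496 genes. Leaving out Snhg11 and Map2 gave 17 and 8, beside 14758 and 707. The 23 higher members in myeloid cells became 15 without Snhg11, 14 without Snhg11 and Map2 and 13 with the even-placed markers. In the same order, 13924, 13659 and 13450 of all 17496 genes were higher. The 2 lower members became 7, 10 and 10, beside 1054, 1283 and 1439 genes. They became 0 with the odd-placed markers and 4 in PS2APP libraries, beside 146 of 17496 and 233 of 15385 genes. The neuron marker total differed by genotype in astrocytes by 0.52 without Snhg11, at an unadjusted exact permutation p under 0.05. That p was not adjusted over the composition tests, unlike the main result. With a library left out the astrocyte difference was 0.34 to 0.62, and in neurons it was -0.091 on raw CPM. The cause of the other shifts was not tested. No paired analysis was possible because the labels number no replicates and tie no library to an animal. Depth limits low genes most: a PS2APP myeloid library held as few as 27 counts of Stx1a.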
